A study of Mus musculus with 4 samples.

Results

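The Mir9 precursor loci are the 3 mouse genes, Mir9-1, Mir9-2 and Mir9-3, from which the same brain microRNA, miR-9, is cut, and they are described here together with C130071C03Rik, the long non-coding RNA that hosts Mir9-2. On the gene arrays used, a locus is measured by a transcript cluster, a group of probes summarised to 1 signal. Clusters were taken when their gene symbol equalled 1 of the 4 names, which gave 5 of 33793 clusters, since Mir9-1 has a cluster on each strand. The 4 names were selected on their log2 signals on these arrays, with the difference between knockout and wild type known, so every such difference of the 5 clusters is given as a description and has no test. The arrays were hybridised with total RNA of whole brains from adult female mice of the 129SV strain, 2 of them labelled wildtype and 2 labelled Adar2-/-. Per the study's methods the animals of both genotypes were siblings from heterozygous crosses and carried the pre-edited Gria2 R/R allele, so the wild type is wild type for Adar2 only. ADAR2 (gene Adarb1) is an enzyme that turns adenosine into inosine in double-stranded RNA, and the comparison asks which transcripts differ in level when it is missing.

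A microRNA gene is transcribed as a long primary transcript, from which the enzyme Drosha cuts a hairpin and Dicer then cuts a short duplex. One arm of the duplex is loaded into an Argonaute protein and represses mRNAs that pair with its seed, the bases near its 5′ end. miR-9 is abundant in the vertebrate nervous system and is known for acting in neural progenitors and in neuron differentiation, and both arms of its hairpin are used.

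The mature sequences and hairpins are shown because they carry the one property that ties the 3 loci together and that limits how well probes can tell them apart. They are RefSeq sequences (GRCm38.p6), written 5′ to 3′. In the mature arms the capitals mark the seed, bases 2 to 8.
miR-9-5p: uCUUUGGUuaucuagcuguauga
miR-9-3p: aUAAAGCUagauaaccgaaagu
In the hairpins the capitals mark both mature arms. Mir9-1 lies at chr3:88215598-88215686, Mir9-2 at chr13:83738814-83738885 and Mir9-3 at chr7:79505264-79505353, all on the plus strand.
Mir9-1: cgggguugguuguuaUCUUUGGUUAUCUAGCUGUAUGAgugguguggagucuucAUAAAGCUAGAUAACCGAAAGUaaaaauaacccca
Mir9-2: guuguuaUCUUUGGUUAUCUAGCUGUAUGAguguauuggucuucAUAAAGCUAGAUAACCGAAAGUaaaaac
Mir9-3: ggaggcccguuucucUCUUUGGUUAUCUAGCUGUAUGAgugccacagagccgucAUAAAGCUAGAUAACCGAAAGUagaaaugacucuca
Both arms are letter for letter the same at the 3 loci, and each seed occurred at no other locus among the mouse microRNAs of the table used. The hairpins differ in the loop and in the stem outside the arms. Aligned end to end, 70 of the 72 bases of the Mir9-2 hairpin were matched in Mir9-1 and 64 in Mir9-3, and 71 of the 89 bases of the Mir9-1 hairpin were matched in Mir9-3. Mir9-1 and Mir9-2 shared a longest unbroken run of 33 bases, and Mir9-3 shared a run of 26 with either. Of the 48 stretches of 25 bases, the usual probe length of such arrays, in the Mir9-2 hairpin, 18 were also in Mir9-1 and 3 in Mir9-3.

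The 5 clusters differ widely in what they cover. The clusters of Mir9-1 on the plus strand (transcript cluster 17399010, 12 probes) and of Mir9-3 (17479423, 19 probes) have exactly the coordinates of the RefSeq hairpins, 89 and 90 bases. The second Mir9-1 cluster (17406686, 16 probes) spans 108 bases of the opposite strand at chr3:88215589-88215696, so it reads RNA antisense to the precursor. The Mir9-2 cluster (17288946, 25 probes) is of another kind, since it spans 2502 bases, chr13:83738806-83741307, of which the 72-base hairpin at its 5′ end makes up 2.88%. It runs on for 2422 bases past the hairpin. All of it lies inside the cluster of C130071C03Rik (17288936, 23 probes), which spans 19754 bases, chr13:83721555-83741308, on the same strand, and ends 1 base beyond it. Thus 12.7% of the host span is shared by both clusters. Of 585 clusters of microRNA precursors on the array, with a median span of 86 bases, 12 spanned over 1000 bases. The file assigns all 25 probes of the Mir9-2 cluster to the Mir9-2 record, and 15 of the 23 probes of the host cluster (65%) to the C130071C03Rik record. It gives no probe positions, so how many of the Mir9-2 probes lie in the hairpin and how many in the host RNA past it could not be read. The file marks the probes of the Mir9-2 and plus-strand Mir9-1 clusters as able to cross-hybridize with other transcripts and those of the other 3 as unique.

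**Figure D1:**
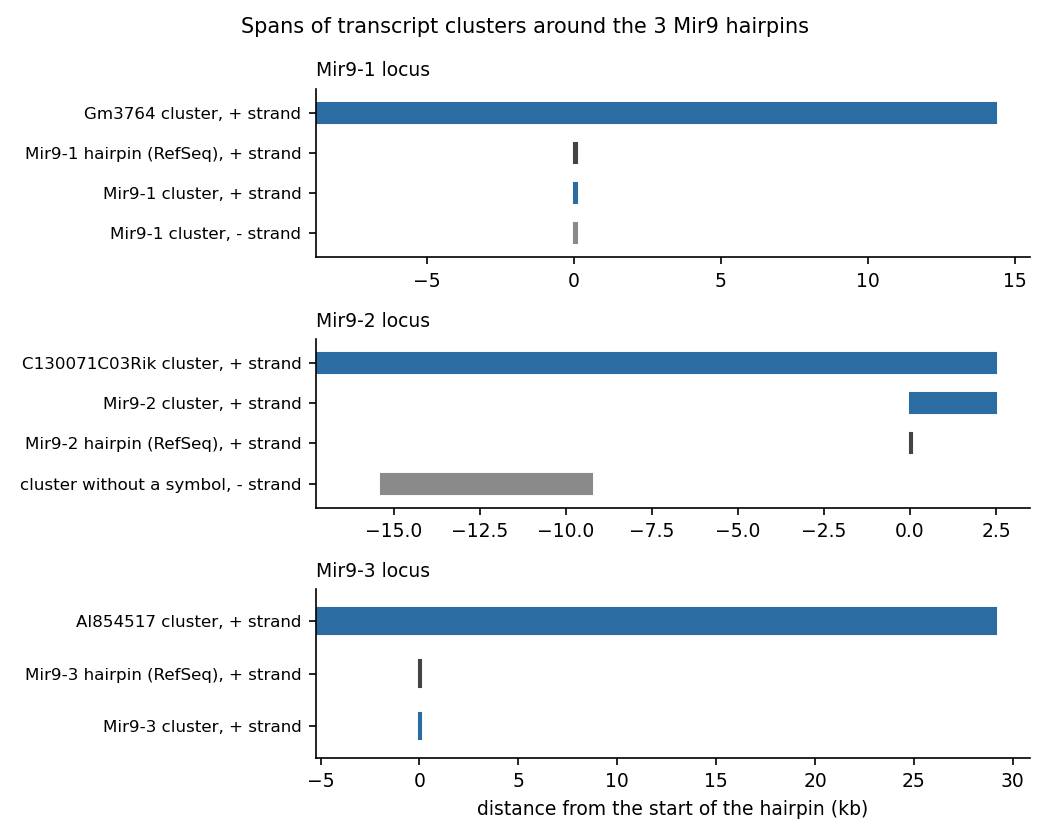
Spans of the transcript clusters at the 3 Mir9 loci, drawn to scale against distance from the start of the hairpin in kb (horizontal axis, a scale per locus), with plus-strand clusters in blue, minus-strand clusters in grey and RefSeq hairpins in dark grey. The Mir9-2 cluster is the one that reaches from its hairpin to the end of its host, while the Mir9-1 and Mir9-3 clusters are as short as the hairpins.

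The Mir9-2 cluster was lower in the Adar2 knockout brain, and those of the host RNA and plus-strand Mir9-1 were lower by far less. Mir9-3 and antisense Mir9-1 overlapped between genotypes. The Mir9-2 cluster lies inside the host span, so precursor and host RNA cannot be told apart in its signal. Values are deposited log2 signals of wild-type replicates 1 and 2 and then knockout replicates 1 and 2, so a difference of -1.0 is a 2-fold lower signal. Levels of different clusters come from different probes and are not compared with each other.

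The Mir9-2 cluster read 7.55 and 7.37 in wild type and 6.40 and 6.52 in the knockout. The knockout values were both well below the wild-type values, and the gap between replicates was 0.18 and 0.12. The group means were 7.46 ± 0.13 (SD, n = 2) and 6.46 ± 0.085 (SD, n = 2), a difference of -1.0 (SE 0.12). Of all 33793 clusters, 10 had a larger difference in this direction.

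C130071C03Rik, the host RNA, read 8.55 and 8.44 in wild type and 8.36 and 8.10 in the knockout. The groups did not overlap, but the gap between the knockout replicates, 0.26, was about as wide as the difference between genotypes. That difference was -0.265 (SE 0.13), a fold of 1.20. It depended on knockout replicate 2, being -0.135 without that array and -0.395 without knockout replicate 1. A cluster with no symbol on the opposite strand within the host (chr13:83723442-83729582) read 6.77 and 6.41 in wild type and 6.59 and 6.56 in the knockout, with both knockout values between those of the wild type.

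The plus-strand Mir9-1 cluster, the precursor strand, read 7.11 and 7.11 in wild type and 6.89 and 6.88 in the knockout. Replicates of a genotype were nearly the same, and the groups did not overlap. The difference was -0.225 (SE 0.10), a fold of 1.17. The antisense Mir9-1 cluster read 5.03 and 5.12 against 5.05 and 4.93, a difference of -0.085 (SE 0.11), with overlapping groups. These last values lie in the range of 3.44 to 5.43 taken by 8 clusters of genes on the Y chromosome, absent from females.

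Mir9-3 read 6.77 and 6.53 in wild type and 6.51 and 6.57 in the knockout. The groups overlapped, and the difference of -0.11 (SE 0.12) was smaller than the gap of 0.24 between the wild-type replicates. Its sign rested on wild-type replicate 1, without which it was 0.010.

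Ordered by difference, the clusters ran from Mir9-2 through C130071C03Rik, plus-strand Mir9-1 and Mir9-3 to antisense Mir9-1. Past Mir9-2, each step in this order was smaller than the larger SE of the 2 clusters it separates. In 3 of the 5 clusters the knockout arrays were both below the wild-type arrays, as was the case for 16.5% of all clusters. All 5 differences were below 0, as were 47.7% of all differences on the array. The contrast had been used to choose the names, and nothing is read from these counts. The clusters that can cross-hybridize are Mir9-2 and plus-strand Mir9-1, and both had groups that did not overlap, as had 1 of the 3 unique clusters. Whether signal from one locus reached the probes of another was not tested.

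**Figure D2:**
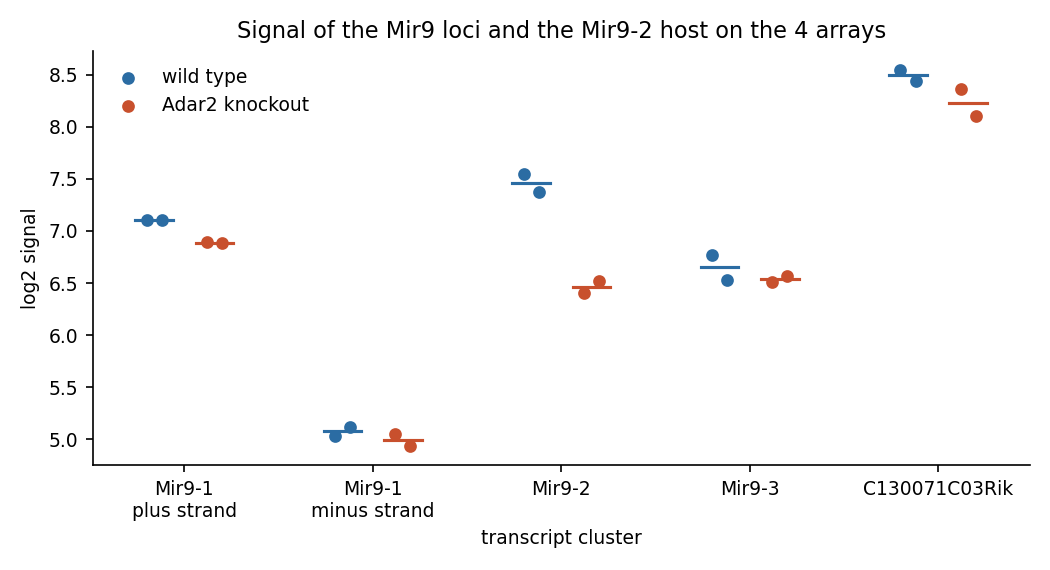
Log2 signal (vertical axis) of the 5 clusters on each of the 4 arrays, wild type in blue and Adar2 knockout in orange, with a bar at each group mean and replicate 1 on the left. The 2 knockout values of Mir9-2, 6.40 and 6.52, stand apart from the wild-type values of 7.37 and 7.55, while those of Mir9-3 and antisense Mir9-1 overlap the wild type.

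A precursor inside a host gene can be set against its host on the same array. For Mir9-2, the log2 signal of the precursor cluster minus that of C130071C03Rik was -1.0 and -1.07 in wild type and -1.96 and -1.58 in the knockout. Both knockout values were the lower ones. The means were -1.04 ± 0.049 (SD, n = 2) and -1.77 ± 0.27 (SD, n = 2), so relative to its host the Mir9-2 cluster was lower by 0.735 on the log2 scale. With single arrays left out, this difference ranged from -0.925 to -0.545. It sets 2 clusters that share 2502 bases of genome against each other, and which part of the transcript each probe reads is not given.

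The other Mir9 loci lie in host RNAs too. Gm3764, the long non-coding RNA over Mir9-1, read 8.12 and 8.05 in wild type and 8.07 and 7.98 in the knockout, a difference of -0.06 (SE 0.11), and plus-strand Mir9-1 minus Gm3764 differed by -0.165. AI854517, the RNA over Mir9-3, read 6.70 and 6.62 against 6.72 and 6.50, a difference of -0.05 (SE 0.12), and Mir9-3 minus its host differed by -0.06. The groups of both hosts overlapped.

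The same quantity was taken for 34 other pairs of a microRNA precursor and its host gene. Their precursor clusters spanned 66 to 110 bases, about the size of a hairpin. The Mir9-2 cluster spans 2502 bases, 2.88% of them hairpin, so its value is of another kind. In these 34 pairs the precursor minus host difference ranged from -0.625 to 0.64 with a median of 0.11. In 3 pairs the precursor minus host value was lower in both knockout arrays than in both wild-type arrays. In a larger number of pairs, Mir26b, Mir107 and Mir128-2 among them, it was higher in both. A share over all clusters was not taken for this quantity. In 19 of the 34, Mir30e among them, neither group mean of the precursor was above 5.43, the highest signal of a Y-linked cluster, and over the other 15 the range was -0.625 to 0.355 with a median of 0.14, a split made after the values were seen. The lowest after Mir9-2 were Mir186 in Zranb2 with -0.625 and Mir30e in Nfyc with -0.54. This order rested on knockout replicate 1. With that array left out the Mir9-2 difference was -0.545, and those of Mir186 and Mir30e were lower. Mir186 minus Zranb2 was -1.15 and -1.17 in wild type and -1.77 and -1.80 in the knockout, so its replicates lay closer together than those of Mir9-2. Mir30e minus Nfyc was -4.82 and -4.41 against -4.65 and -5.66, with overlapping groups. The host genes of these 34 pairs differed by -0.27 to 0.21, so C130071C03Rik was at the lower end of the range for hosts.

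**Figure D3:**
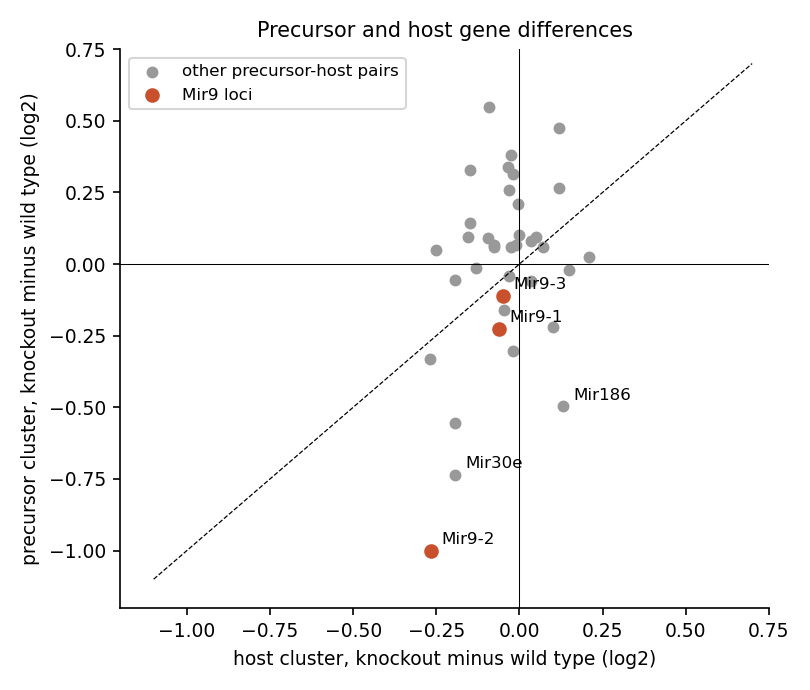
Knockout minus wild-type difference in log2 signal of the host cluster (horizontal axis) and of the precursor cluster (vertical axis) for 37 precursor and host pairs, with the Mir9 loci in orange, other pairs in grey and the dashed line where both differ alike. With all 4 arrays Mir9-2, at -1.0 against -0.265, lies farthest below the line, with Mir186 and Mir30e next. The Mir9-2 cluster spans 2502 bases, and the precursor clusters of the grey pairs span 66 to 110.

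Among all 585 precursor clusters the median difference was 0.045, and in 66 (11.3%, beside 16.5% of all clusters) both knockout arrays were below both wild-type arrays. At an unadjusted limma p below 0.05, 22 were lower in the knockout (3.76%, beside 2.31% of all clusters) and 29 higher (4.96%, beside 3.64%). Besides Mir9-2, 2 precursors had a difference below -1: Mirlet7c-2, a let-7 precursor, read 5.11 and 5.64 in wild type and 3.64 and 4.11 in the knockout, and Mir376b read 7.85 and 7.79 against 7.02 and 6.28. Neither overlapped between groups, and in both the knockout replicates lay farther apart than those of Mir9-2. The median gap between replicates was 0.19 for precursors and 0.13 for all clusters. Precursors whose probes can cross-hybridize, 174 of the 585, had a median difference of 0.0975, and the 411 unique ones had 0.025. The 174 hold repeated readings, such as those of Mir669a-1, where many clusters share a difference of 0.19 and the same replicate gaps. Such repeats enter the counts and the median more than once, so the medians of the 2 groups are not compared.

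**Figure D4:**
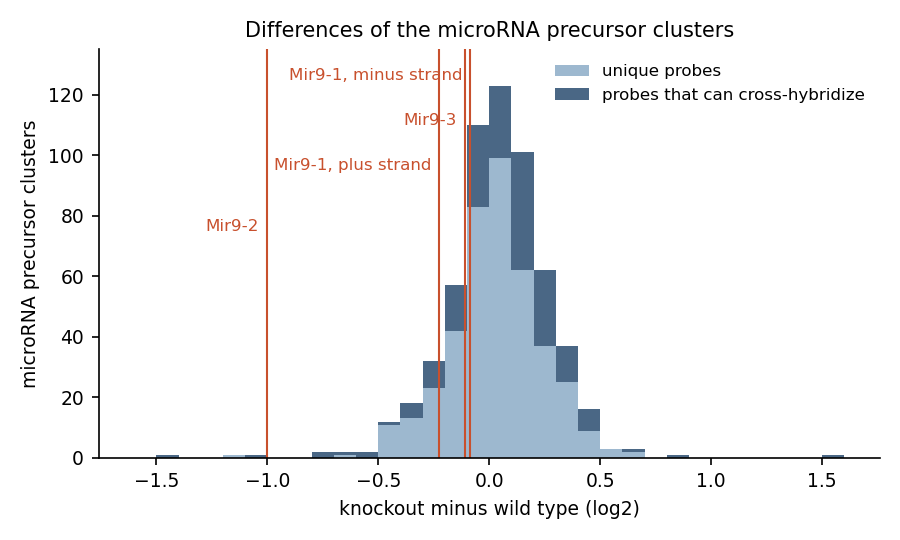
Number of the 585 microRNA precursor clusters (vertical axis) by knockout minus wild-type difference in log2 signal (horizontal axis), stacked by whether the file marks the probes as unique (light) or able to cross-hybridize (dark), with lines at the 4 Mir9 clusters. Mir9-2 stands in the sparse lower tail at -1.0, while the other 3 lines fall within the main body of the distribution.

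Unequal differences between loci of one mature microRNA were also seen elsewhere. A locus was counted here where its cluster overlapped a RefSeq hairpin of the same symbol on the same strand, so loci without such an overlap were left out. Of 22 microRNAs with more than 1 such locus, Mir9 had the third widest range of differences, 0.89 from Mir9-2 to Mir9-3. This range sets the Mir9-2 cluster of 2502 bases, 2.88% of them hairpin, against the 90 bases of the Mir9-3 cluster. Mirlet7c had 1.27, from Mirlet7c-2 to Mirlet7c-1, and Mirlet7f had 0.935, from Mirlet7f-1 to Mirlet7f-2. The median range was 0.22. Of these, Mirlet7f-2, with means of 2.06 and 2.37, lies below the range of the Y-linked clusters. Both knockout values of Mirlet7c-2 and its wild-type replicate 1, at 5.11, lie within that range. The ranges of both let-7 microRNAs thus include signals not shown to be above background.

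Across the whole array, 0 of 33793 clusters (0.0%) passed a Benjamini-Hochberg adjusted limma p of 0.05, with 0.409 as the lowest adjusted value. Without adjustment 2009 clusters (5.95%) had a limma p below 0.05, of which 779 (2.31%) were lower and 1230 (3.64%) higher in the knockout. This split turned to 1229 lower and 801 higher when each array was centred on its median, and to 944 and 896 after quantile normalization. Adarb1 was itself lower in the knockout, at 10.50 and 10.45 against 9.16 and 8.96. The smallest two-sided p of an exact permutation test of 2 arrays against 2 is 0.333, and the p-values measure the spread between these arrays only.

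Genes described as targets of miR-9 were mostly not distinguishable between genotypes. The list of 19 genes was written from general knowledge of miR-9, and 18 of them were found, in 19 clusters. At an unadjusted limma p below 0.05, 3 clusters were lower in the knockout (15.8%, beside 2.31% of all clusters) and 0 were higher (beside 3.64%), and 0 passed the adjusted threshold. The median difference was -0.055, beside 0.005 for all clusters. In 14 of the 19 the difference was below 0, and in 7 both knockout arrays were below both wild-type arrays, beside the 16.5% given above. After median centring the medians were -0.095 for the list and -0.035 for all clusters.

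The 3 lower target genes are regulators known from neural progenitors or brain patterning. Actl6a, an actin-related subunit of the chromatin-remodelling complex of progenitors that is replaced in neurons, read 8.56 and 8.26 in wild type and 8.02 and 7.90 in the knockout, a difference of -0.45 (SE 0.14). Its unadjusted limma p was 0.0184. Meis2, a homeobox transcription factor, read 9.95 and 9.73 against 9.58 and 9.44, a difference of -0.33 (SE 0.13) with an unadjusted limma p of 0.0416. Nr2e1 (Tlx), an orphan nuclear receptor of neural stem cells, read 7.74 and 7.56 against 7.36 and 7.34, a difference of -0.30 (SE 0.11) with an unadjusted limma p of 0.0403. Each had groups that did not overlap, and each had an adjusted limma p of 0.834. The count of 3 lower clusters was not stable, since it was 0 without knockout replicate 1, 0 without knockout replicate 2 and 0 without wild-type replicate 1, where 1 other cluster was higher instead. With the replicate number as a block the count was 2, where the Nr2e1 call was lost (limma p 0.0517). It was also 2 after quantile or cyclic loess normalization, where the Meis2 call was lost (limma p 0.0672 and 0.0656).

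The other targets had smaller differences. Rest, the repressor of neuronal genes, differed by 0.045 (SE 0.14), and its corepressor Rcor1 by -0.045 (SE 0.10). Hes1, the Notch effector, differed by -0.18 (SE 0.15), and Foxp1 and Foxp2, forkhead transcription factors, by -0.11 and -0.125. Onecut1 and Onecut2 differed by -0.055 (SE 0.22) and -0.205 (SE 0.12). The highest difference, 0.275 (SE 0.12), belonged to the minus-strand cluster listed under Cdh1 (E-cadherin), whose plus-strand cluster differed by -0.07.

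**Figure D5:**
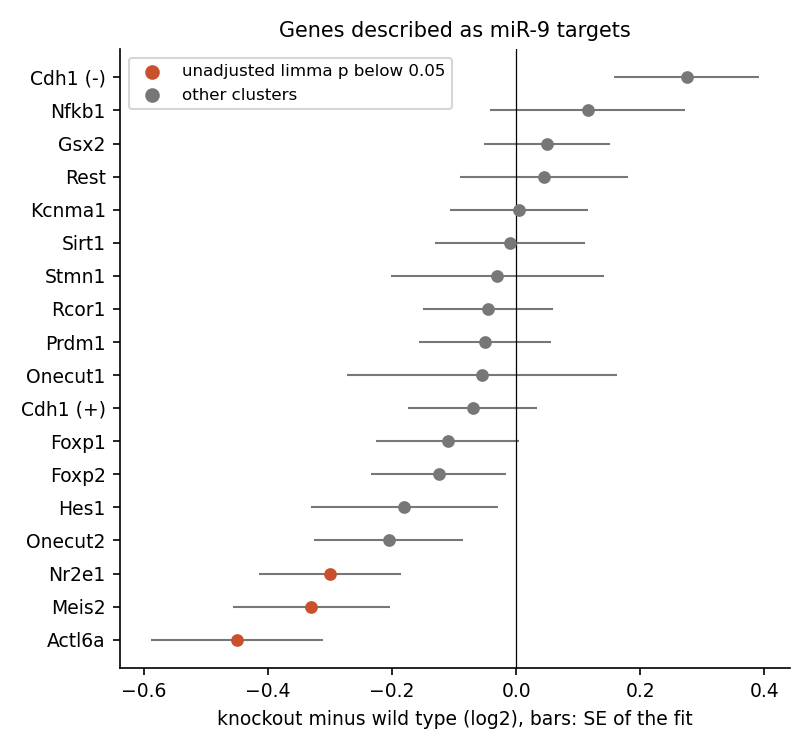
Knockout minus wild-type difference in log2 signal (horizontal axis) of 18 clusters of genes described as miR-9 targets, with bars of 1 SE of the limma fit on each side and clusters with an unadjusted p below 0.05 in orange. Actl6a, Meis2 and Nr2e1 are lowest, at -0.45, -0.33 and -0.30, and most of the other bars cross 0.

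Genes of neural progenitors, in which miR-9 is known to act, were read as well. Of 15 clusters of 11 genes, 0 were lower (beside 2.31% of all clusters) and 0 higher (beside 3.64%) at an unadjusted limma p below 0.05, counts too small to set apart from those shares, and the median difference was -0.15. The stem cell factor Sox2 differed by -0.205 (SE 0.11). The plus-strand cluster of Hes5, a Notch effector, differed by -0.33 (SE 0.15) and its minus-strand cluster by 0.25 (SE 0.11), while Nes, an intermediate filament of progenitors, differed by 0.265 (SE 0.14). Of 21 clusters of other microRNA precursors known from brain, 1 was lower (4.76%, beside 2.31% of all clusters) and 2 were higher (9.52%, beside 3.64%). Mir137 read 2.59 and 2.90 in wild type and 2.37 and 2.28 in the knockout (limma p 0.0240). Mir128-2 read 3.70 and 3.79 against 4.43 and 4.16 (limma p 0.00615), and Mir125b-1 read 2.30 and 2.02 against 2.55 and 2.74 (limma p 0.0148). All 3 had an adjusted limma p of 0.834. The values of Mir137 and Mir125b-1 lie below the range of the Y-linked clusters and those of Mir128-2 within it, so none of the 3 was shown to be above background.

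The nearest genes on either side of Mir9-2 and Mir9-3 differed by less than their SE. Mef2c, a transcription factor of neurons and muscle that ends 71727 bases before Mir9-2, read 10.24 and 10.08 in wild type and 10.07 and 10.18 in the knockout, a difference of -0.035 (SE 0.12). On the other side 2810049E08Rik, 149901 bases away, differed by 0.04 (SE 0.21). Next to Mir9-3, Gm10616 and the ammonia transporter gene Rhcg differed by 0.09 (SE 0.16) and by 0 (SE 0.16). Mir3093, another precursor 341 bases before Mir9-1, read 5.82 and 6.85 against 5.91 and 6.29, with a gap between the wild-type replicates wider than its difference of -0.235.

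Of 76 clusters with a symbol within 500 kb of a Mir9 locus, 1 was lower (1.32%, beside 2.31% of all clusters) and 2 were higher (2.63%, beside 3.64%) at an unadjusted limma p below 0.05. Their median difference was -0.025. Rlbp1, a retinaldehyde-binding protein gene, read 7.90 and 7.88 in wild type and 7.65 and 7.61 in the knockout (limma p 0.0444). Rhbg, an ammonia transporter gene 27188 bases after Mir9-1, read 5.15 and 5.14 against 5.42 and 5.66 (limma p 0.0193), with 3 of the 4 values inside the range of the Y-linked clusters. Both had an adjusted limma p of 0.834. The Rlbp1 call was lost with each array left out, after quantile or cyclic loess normalization (p 0.062 in both) and with the replicate block (p 0.055), and the Rhbg call was lost with any array but knockout replicate 1 left out. The count of 3 was 1 without knockout replicate 1, 0 without knockout replicate 2 and 1 without wild-type replicate 2. Its split turned to 3 lower and 1 higher with median centring and to 2 lower and 0 higher without wild-type replicate 1.

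The clusters whose signals over the 4 arrays lay closest to those of Mir9-2, after each cluster's mean was subtracted, were Cyr61, Olfr787, Gm1976, Serpinb1a and LOC100041824, at Euclidean distances of 0.172, 0.312, 0.321, 0.326 and 0.331. Cyr61, a secreted matrix protein gene, read 8.84 and 8.64 in wild type and 7.76 and 8.01 in the knockout. As with Mir9-2, wild-type replicate 1 was its highest array and knockout replicate 1 its lowest. Serpinb1a, a protease inhibitor gene, read 6.12 and 6.25 against 5.37 and 5.17, with the replicates of each genotype in the other order. The likeness rests on 4 arrays and was sought among all clusters with a symbol, so it is a description.

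Signals of the brain's cell types and of tissues at its edge were read on the same arrays. The lists of neuron, microglia and choroid plexus markers had 0 clusters past an unadjusted limma p of 0.05. The counts of the other lists stand beside the 2.31% of all clusters that were lower and the 3.64% that were higher. Of 5 astrocyte clusters Gja1 was lower, and of 5 oligodendrocyte clusters Mog was lower. The astrocyte median difference was -0.125, with 4 of 5 below 0 and 1 above. In 3 of those 5 both knockout arrays were below both wild-type arrays, beside 16.5% of all clusters. The medians of the neuron, oligodendrocyte, microglia and choroid plexus lists were -0.0125, -0.025, -0.06 and 0.065. Of 9 clusters of 8 pituitary genes, 3 were higher in the knockout, namely Prl, Gh and Pomc. The mean over the 9 was 5.14 and 4.82 in wild type and 6.09 and 5.81 in the knockout. Prl and Gh differed by 4.115 and 3.165, while the median difference of the 9 was 0.18. Bpifa2, a salivary gland gene, read 12.61 in knockout replicate 1 and 5.09 to 5.28 on the other arrays. An olfactory bulb list, chosen after values had been seen, had a mean of 7.98 and 8.11 in wild type and of 8.02 and 7.56 in the knockout, and 1 of its 8 clusters, Cdhr1, was lower (7.80 and 7.87 against 7.44 and 6.66). Of the 8 Y-linked clusters, Zfy2 was higher, at 3.59 and 3.78 against 3.96 and 4.25. Mir9-2 was lower by 0.94 without knockout replicate 1, the array with the Bpifa2 signal, and differed by -1.06 without knockout replicate 2, the array lowest in olfactory bulb genes. Both knockout arrays had the pituitary signal, whose part in the Mir9 values was not tested. In whole brain, fewer cells of a type and less RNA per cell cannot be told apart.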

How the data were processed

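Total RNA of 4 whole brains was prepared with the Ambion WT Expression Kit and read on Affymetrix mouse gene arrays at a service facility. The authors deposited a normalized log2 signal per cluster and array, given to 2 decimals, and the submitters' processing notes name Affymetrix Expression Console and RMA, a procedure that corrects background, normalizes between arrays and summarises probes, which compresses differences of dim clusters. The table also holds group averages, ratios, fold changes and p-values of the authors' own comparison, which were not used. The file names no genome build; the Mir9-1 and Mir9-3 clusters match RefSeq hairpins of GRCm38.p6 base for base. The number of arrays limits the precision.

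Differences were fitted with limma 3.58.1 in R 4.3.3 (eBayes after lmFit with a genotype term and no covariate, two-sided tests, prior SD 0.125, prior degrees of freedom 3.79), with Benjamini-Hochberg adjustment over all 33793 clusters and no filter. The unadjusted threshold of 0.05 gave the share per direction beside which lists are read. Hairpins were aligned with Biopython 1.88. Python 3.11.15 with pandas 2.3.3 and matplotlib 3.10.9 handled tables and plots. The fit was tested on simulated data.

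The members and lists were chosen with earlier results of these data known. The olfactory bulb list was added after values were seen. Named were the clusters of the 4 members, clusters of each list or within 500 kb that had an unadjusted p below 0.05, the nearest neighbours, the 3 pairs with the lowest precursor minus host difference, and the 5 clusters nearest to Mir9-2 in profile. A target gene and a neighbouring gene that enter the counts are not reported here by name. Other target, progenitor and precursor genes, and Adarb1 and Bpifa2, were named after their values were seen, the last 2 as checks of the arrays. The fit was repeated with quantile, cyclic loess or median scaling of the arrays, with clusters above the median signal only, with unique probes only, with an intensity trend, with a replicate block and with each array left out. Replicate numbers were taken from the labels, and arrays with the same number did not deviate together (r = 0.052 over clusters).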

Additional observations from a re-analysis of the deposited data

How the results depend on the processing

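The difference of Mir9-2 stayed between -1.09 and -0.91 with each array left out. Over the same fits C130071C03Rik ranged from -0.395 to -0.135, plus-strand Mir9-1 from -0.23 to -0.22, antisense Mir9-1 from -0.145 to -0.025, and Mir9-2 minus its host from -0.925 to -0.545. Mir9-3 ranged from -0.23 to 0.010, the last without wild-type replicate 1, and the cause was not tested. No cluster passed the adjusted threshold in any of the 11 alternative limma fits, and the count at an unadjusted p below 0.05 ranged from 1221 to 1801 with an array left out, the lowest without wild-type replicate 1. It was 989 among clusters above the median signal, where fewer clusters are tested, 589 of them lower and 400 higher. The split was 915 lower and 924 higher with cyclic loess and 927 lower and 1043 higher with an intensity trend. The target count ranged from 0 to 3 and the neighbour count from 0 to 2 with an array left out, and the neighbour count was 1 among clusters above the median signal. Under the replicate block, 1693 clusters had an unadjusted p below 0.05, 0 passed the adjusted threshold, the target count was 2 and the neighbour count 3, and the differences of the members did not move. The numbers do not pair the arrays. Mir9-2 and plus-strand Mir9-1 have no value among clusters with unique probes, and antisense Mir9-1 has none among clusters above the median signal. Leaving out an array leaves a lone array that is assumed to vary like the other genotype. The deposited table gives no detection calls, so how far dim clusters such as antisense Mir9-1 lie above background is not known.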
